A study of Mus musculus with 8 samples.

Results

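The genes described here are 10 genes of transforming growth factor beta (TGF-beta) production and signalling, chosen by symbol from 47069 Ensembl genes measured in sorted mouse regulatory T cells (Tregs). They are the ligand gene Tgfb1, the gene Lrrc32 for the protein that holds latent TGF-beta on the Treg surface, the receptor genes Tgfbr1, Tgfbr2 and Tgfbr3, the transducers Smad2, Smad3 and Smad4, and the inhibitors Smad7 and Ski. The rule that picks them uses names and no measured value. All 10 were found by their Ensembl identifiers in both deposited tables and all 10 passed the filter on low values, which 12273 genes passed.

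TGF-beta is secreted in a latent form, bound by its own propeptide, and is released from it by integrins and proteases. The active ligand assembles the type II receptor (Tgfbr2) with the type I receptor (Tgfbr1), which phosphorylates Smad2 and Smad3. These enter the nucleus with Smad4, while Smad7 acts at the receptor and Ski on the SMAD complexes to limit the response. In T cells the pathway supports Foxp3 expression and the formation of peripheral Tregs, and restrains effector differentiation.

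Both populations were sorted from lymph nodes of C57BL/6 mice, aged 6 to 8 weeks, of the cross 35EbiT × Blimp1-GFP KI, so every cell came from an animal with both reporters. Ebi3-Treg cells were Thy1.1+ and Blimp1-, and Blimp1-Treg cells were Thy1.1- and Blimp1+. Both were CD4+ and CD25+. Each population had 4 libraries, numbered 1 to 4, and the labels do not say whether these came from separate animals or from pools, so the p-values rest on a spread between libraries that may be technical. The values are FPKM, that is fragments per kilobase of transcript, scaled to the depth of the library. One table held the libraries numbered 1 and 2 and a second those numbered 3 and 4.

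Library depth lay between 13.3 M fragments (M, mega; Ebi3-Treg 3) and 31.3 M fragments (Blimp1-Treg 1). Ebi3 and Prdm1, which encodes Blimp1, went in the directions of the labels. Their log2 fold changes were 1.80 and -4.43 (limma adjusted p = 0.00576 and 0.000155). Thy1, the gene of the sort marker Thy1.1, was at 17.4 to 40.4 FPKM in Ebi3-Treg, against 13.7 to 29.6 in Blimp1-Treg, with overlap. Its log2 fold change of 0.43 did not pass in that fit (limma adjusted p = 0.375, and 0.0136 with the replicate number as a block). Foxp3 had 182 to 375 FPKM in Ebi3-Treg, against 184 to 406 in Blimp1-Treg. The libraries numbered 1 stood apart in B cell markers (8 genes), which summed to 248 FPKM in Ebi3-Treg 1 and 171 in Blimp1-Treg 1, against 49.2 to 72.5 FPKM in the other Ebi3-Treg libraries and 32.5 to 38.5 FPKM in the other Blimp1-Treg libraries. Myeloid markers (8 genes) summed to 13.4 to 114 FPKM in Ebi3-Treg, against 11.3 to 39.9 in Blimp1-Treg, and CD8 T and NK cell markers (6 genes) to 11.4 to 63.4 FPKM in Ebi3-Treg, against 10.6 to 36.4 in Blimp1-Treg. Of the 21 markers of these and other cell types that were tested, 0 were called with the table as a term, where 6.29% of all genes were. With the replicate number as a block 6 were, where 22.4% of all genes were. Of these, the B cell markers Cd22 and Cd79b, the myeloid marker Lyz2 and the endothelial marker Pecam1 were higher. The T cell markers Cd3e and Ctla4 were lower. In the same lists, Cd79a and Ms4a1 lay higher by value, and Blk, Cd68, Col1a1 and the remaining T cell markers lower, without passing. The part of other cells in the results below was not tested.

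Lrrc32 and Smad3 had the largest differences of the 10 genes by value, Lrrc32 higher and Smad3 lower in Ebi3-Treg, and neither passed with the table as a term. With the table as a term, 0 of the 10 genes passed an adjusted p of 0.05 in limma, where 6.29% of all genes tested were called (3.37% higher and 2.93% lower), and 1 had an unadjusted p below 0.05, where 18.6% of all genes did. A limma voom fit on reads recovered from the FPKM values likewise called 0, against 6.11% of all genes. It had 1 below an unadjusted 0.05, where 2219 of all 12273 genes tested were. Yet 8 of the 10 lay on the same side in all 4 pairs of same-numbered libraries, 6 of them higher in Ebi3-Treg (Lrrc32, Tgfbr2, Tgfbr3, Smad4, Smad7 and Ski) and 2 lower (Tgfbr1 and Smad3), where 44.2% of all genes tested had one side in all 4 numbers (28.0% higher and 16.3% lower). Once same-numbered libraries were set against each other by a block term, 5 of the 10 passed, where 22.4% of all genes were called (13.5% higher and 8.94% lower). Of these, Lrrc32, Tgfbr2, Tgfbr3 and Smad7 were higher and Smad3 was lower. The labels do not give this pairing by number, which was taken from correlations in these data. For numbers 3 and 4 it cannot be told from the table. No gene of the 10 separated the populations completely by its own level, where 11.1% of all genes did. Fold changes are given as Ebi3-Treg minus Blimp1-Treg in log2(FPKM + 1). Their median was 0.20 over the 10 genes and 0.07 over all genes tested, and the median size without sign was 0.38 against 0.22.

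**Figure D1:**
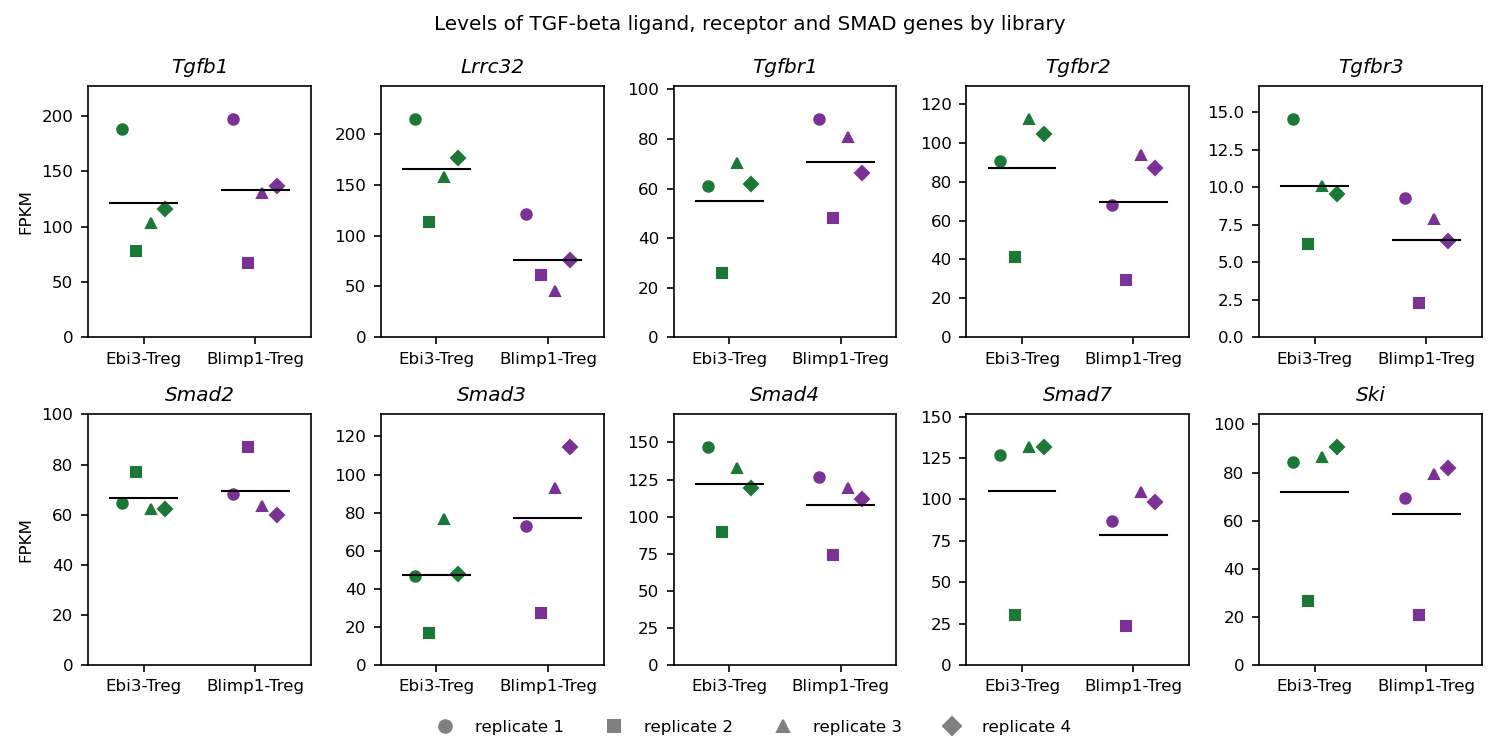
FPKM of each of the 10 genes (vertical axis) in the 4 Ebi3-Treg and the 4 Blimp1-Treg libraries. Point shapes mark the replicate number and bars mark the mean of each population. Libraries numbered 2 (squares) are the lowest of their population for every gene but Smad2, where they are the highest, and Lrrc32 in Blimp1-Treg, where replicate 3 is the lowest.

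The docking protein gene had the largest difference of the 10. Lrrc32 (ENSMUSG00000090958) encodes GARP, which anchors latent TGF-beta to the membrane of activated Tregs. It was at 215, 113, 158 and 176 FPKM in Ebi3-Treg 1 to 4, against 121, 61.3, 45.6 and 76.0 FPKM in Blimp1-Treg 1 to 4. Every Ebi3-Treg library lay above the Blimp1-Treg library of its number, and the populations overlapped only in that Ebi3-Treg 2 lay below Blimp1-Treg 1. The log2 fold change was 1.17 (SE 0.31, 95% interval 0.45 to 1.89), with an adjusted p of 0.0714 in limma with the table as a term and 0.00342 with the replicate block. It was 0.85 in replicates 1 and 2 and 1.49 in replicates 3 and 4, which passed alone (adjusted p = 0.0275, where 11.0% of all genes were called). Without Ebi3-Treg 2 or without Blimp1-Treg 1 the adjusted p was 0.0415 and 0.0341, and without any other single library it was 0.131 to 0.213. In bulk samples, fewer cells with a transcript and less of it per cell cannot be told apart. Lrrc32 is also known from megakaryocytes, platelets and endothelial cells. Of 7 platelet and megakaryocyte markers, 5 were below 1 FPKM in every library, and the list summed to 0.886 to 3.64 FPKM in Ebi3-Treg, against 1.01 to 3.12 in Blimp1-Treg. The 2 tested were Itga2b and Pf4, and neither passed with either term. Itga2b was at 1.39 ± 0.62 FPKM in Ebi3-Treg, against 0.70 ± 0.50 in Blimp1-Treg (SD, n = 4; log2 fold change 0.50, adjusted p = 0.427, and 0.124 with the block). Pf4 was at 0.90 ± 0.57 FPKM in Ebi3-Treg, against 0.88 ± 0.58 in Blimp1-Treg. Of 9 endothelial and stromal markers, 6 were below 1 FPKM everywhere, Cdh5 reaching at most 0.176 FPKM. Their sum was 30.8 to 67.5 FPKM in Ebi3-Treg, against 16.8 to 35.0 in Blimp1-Treg, most of it Pecam1, which T cells also express (45.9 ± 12.7 FPKM in Ebi3-Treg, against 26.5 ± 7.28 in Blimp1-Treg; SD, n = 4; adjusted p = 0.163, and 0.00285 with the block).

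Tgfb1 (ENSMUSG00000002603), the ligand gene, showed no such contrast. It was at 188, 78.0, 103 and 116 FPKM in Ebi3-Treg, against 198, 67.1, 130.3 and 137 FPKM in Blimp1-Treg. Its direction differed between numbers, with Ebi3-Treg higher in number 2 and lower in the other 3. The log2 fold change was -0.11 (SE 0.38, 95% interval -0.98 to 0.76, adjusted p = 0.947), 0.07 in replicates 1 and 2 and -0.28 in replicates 3 and 4. The interval is wide enough to hold a difference close to 1 log2 unit on the lower side, and with the replicate block it narrowed to -0.35 to 0.14 (adjusted p = 0.511). Without Ebi3-Treg 2 or without Blimp1-Treg 1 the fold change was 0.11 and 0.17.

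Docking protein and ligand, taken as a ratio within each library, separated the populations. The FPKM of Lrrc32 over that of Tgfb1 was 1.14, 1.45, 1.53 and 1.52 in Ebi3-Treg, against 0.612, 0.913, 0.350 and 0.556 in Blimp1-Treg. Every Ebi3-Treg ratio lay above every Blimp1-Treg ratio. Which gene of a pair is the higher depends on the gene lengths used, and whether its ratios overlap does not. This and the ratios below are descriptions, chosen for the known roles of the genes, with no test. Tgfbr3 over Tgfbr2 and Smad3 over Smad4 were chosen in the same way, and both overlapped between the populations. Of the 45 ratios between the 10 genes, 11 (24.4%) did not overlap between populations, where 12.6% of all gene pairs did not, and 10 of the 11 involved Lrrc32, Smad3 or Tgfbr1.

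The signalling receptors lay on opposite sides by value. Tgfbr2 (ENSMUSG00000032440), the ligand-binding type II receptor, was at 90.6, 41.1, 112 and 104 FPKM in Ebi3-Treg, against 68.1, 29.4, 93.7 and 87.2 FPKM in Blimp1-Treg. Every Ebi3-Treg library exceeded its numbered counterpart, although the populations overlapped. The log2 fold change was 0.35 (SE 0.31, 95% interval -0.37 to 1.07), with an adjusted p of 0.678 with the table as a term and 0.0196 with the replicate block (95% interval 0.17 to 0.53). With the table as a term it was 0.11 when Ebi3-Treg 1 was left out and 0.0942 when Blimp1-Treg 2 was, and up to 0.57 with other libraries left out. Tgfbr1 (ENSMUSG00000007613), the type I receptor kinase, was at 61.1, 26.0, 70.1 and 61.8 FPKM in Ebi3-Treg, against 88.2, 48.1, 80.6 and 66.4 FPKM in Blimp1-Treg. It was lower in Ebi3-Treg in all 4 numbers, by -0.52 and -0.86 on the log2 scale in numbers 1 and 2 and by -0.20 and -0.10 in numbers 3 and 4. Its log2 fold change of -0.42 (SE 0.31, 95% interval -1.13 to 0.28) did not pass with either term (adjusted p = 0.576, and 0.0635 with the block). Leaving out Ebi3-Treg 2 gave -0.13 and leaving out Blimp1-Treg 1 gave -0.19, while the other single libraries gave -0.61 to -0.42.

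Their ratio did not overlap between the populations. Tgfbr2 over Tgfbr1 was 1.48, 1.58, 1.60 and 1.69 in Ebi3-Treg, against 0.772, 0.611, 1.16 and 1.31 in Blimp1-Treg. The Ebi3-Treg values lay in a narrow range, and the Blimp1-Treg values were lower in replicates 1 and 2 than in replicates 3 and 4.

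Tgfbr3 (ENSMUSG00000029287) encodes betaglycan, a co-receptor that presents ligand to the type II receptor. It was the lowest of the 10 genes in every library, at 14.6, 6.24, 10.1 and 9.54 FPKM in Ebi3-Treg against 9.27, 2.28, 7.86 and 6.41 FPKM in Blimp1-Treg. These values rest on 346 to 1024 reads in Ebi3-Treg and 122 to 797 reads in Blimp1-Treg. Ebi3-Treg was higher in all 4 numbers, and only Ebi3-Treg 2 fell within the Blimp1-Treg range. The log2 fold change was 0.64 (SE 0.39, 95% interval -0.26 to 1.54), with an adjusted p of 0.469 with the table as a term and 0.0272 with the block. By the table term it dropped to 0.38 without Ebi3-Treg 1 and 0.27 without Blimp1-Treg 2, and was 0.64 to 0.93 without another library. The exons of Tgfbr3 share bases with those of the gene model Gm43422, so reads there could belong to either.

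RefSeq promoter entries were given for 5 of the 10 genes. The 250 bases before the start of Tgfbr2 and of Smad3 are printed because these are the genes with an entry that passed with the block, one in each direction. They come from RefSeq on build GRCm38.p6, chr9:116175364-116175613 (minus strand) for Tgfbr2 and chr9:63757995-63758244 (minus strand) for Smad3, and are written 5′ to 3′ with matches to the motifs searched in capitals.
Tgfbr2: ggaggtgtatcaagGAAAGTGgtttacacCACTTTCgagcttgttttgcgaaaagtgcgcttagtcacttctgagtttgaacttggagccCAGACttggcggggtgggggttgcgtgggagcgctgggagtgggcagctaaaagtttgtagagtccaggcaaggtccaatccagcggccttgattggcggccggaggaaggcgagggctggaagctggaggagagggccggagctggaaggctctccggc
Smad3: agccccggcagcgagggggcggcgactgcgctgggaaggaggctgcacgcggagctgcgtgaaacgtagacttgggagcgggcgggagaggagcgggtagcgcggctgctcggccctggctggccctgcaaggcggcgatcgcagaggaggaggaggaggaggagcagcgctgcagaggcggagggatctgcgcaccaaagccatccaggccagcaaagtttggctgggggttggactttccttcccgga
The motifs were the palindromic SMAD-binding element GTCTAGAC, the shorter SMAD box CAGAC and the core GAAAGTG of the site bound by Blimp1, each sought on both strands, and they were chosen with the sequences at hand. The Tgfbr2 window holds GAAAGTG on the given strand, 236 to 230 bases before the start, and its reverse complement 221 to 215 bases before the start, as well as CAGAC 160 to 156 bases before the start. The Smad3 window holds none of them. The windows of Tgfb1, Ski and Tgfbr1, not printed, were searched as well. They hold none either, apart from CAGAC in a Tgfbr1 window, 203 to 199 bases before the start. Over all 32851 RefSeq promoter windows of this length, 4.0% hold GAAAGTG, 42.2% hold CAGAC and 0.2% hold GTCTAGAC. A match is a description of the letters and not of a site, and base composition differs between the windows (58.4% G and C for Tgfbr2, 69.2% for Smad3).

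**Figure D2:**
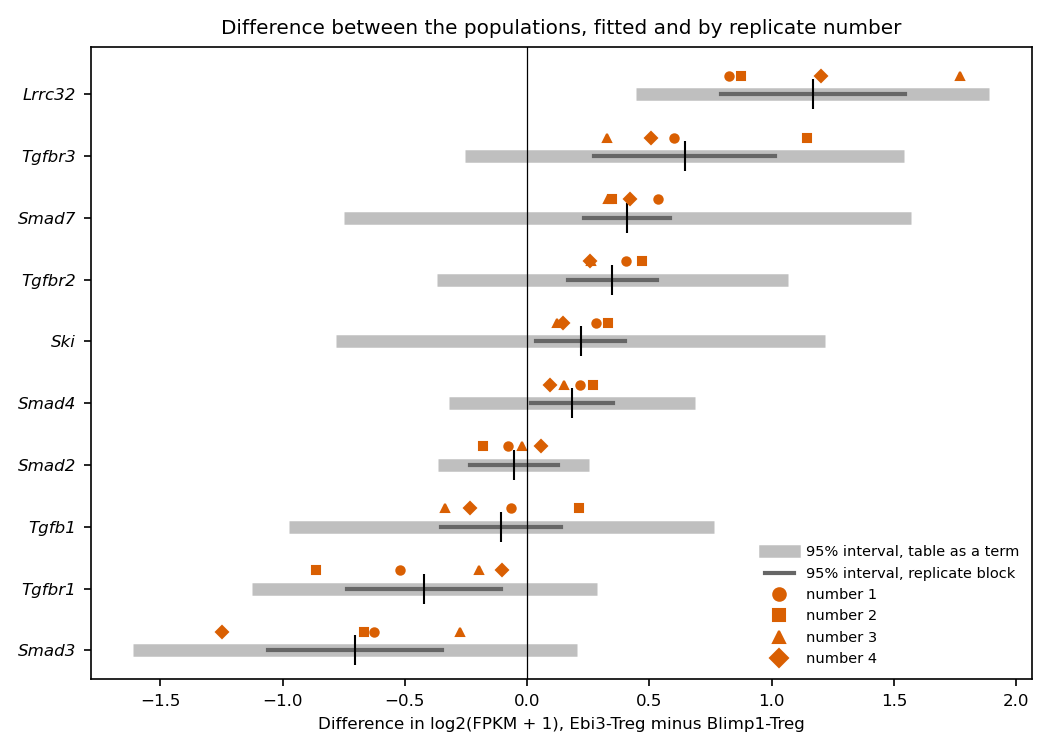
Difference in log2(FPKM + 1), Ebi3-Treg minus Blimp1-Treg (horizontal axis), for the 10 genes. Ticks mark the fitted difference, wide bars the 95% interval with the table as a term, narrow bars the 95% interval with the replicate block, and points the difference within each replicate number. Points lie on one side of 0 for every gene but Smad2 and Tgfb1, and the Lrrc32 interval alone lies wholly above 0 with the table as a term.

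Among the transducers, Smad3 had the largest difference by value and Smad2 and Smad4 small ones. Smad3 (ENSMUSG00000032402), one of the receptor-activated SMADs, binds DNA directly. It was at 46.8, 16.8, 76.9 and 47.7 FPKM in Ebi3-Treg, against 72.8, 27.3, 93.1 and 115 FPKM in Blimp1-Treg. Ebi3-Treg was lower in every number, least in number 3 (-0.27 on the log2 scale) and most in number 4 (-1.25), and the populations overlapped. The log2 fold change was -0.70 (SE 0.39, 95% interval -1.61 to 0.20), with an adjusted p of 0.414 with the table as a term and 0.0179 with the block (95% interval -1.06 to -0.35). The tables gave similar values, -0.65 in replicates 1 and 2 and -0.76 in replicates 3 and 4. Single libraries moved the value more, to -0.43 without Ebi3-Treg 2 and -0.44 without Blimp1-Treg 1, and to -0.9998 without Ebi3-Treg 1 and -0.99 without Blimp1-Treg 2.

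Smad2 (ENSMUSG00000024563), the other receptor-activated SMAD of this pathway, was at 64.5, 76.9, 62.3 and 62.2 FPKM in Ebi3-Treg, against 68.1, 87.2, 63.3 and 59.8 FPKM in Blimp1-Treg. It had the narrowest interval of the 10 genes, a log2 fold change of -0.06 (SE 0.13, 95% interval -0.36 to 0.25, adjusted p = 0.917), and its direction differed between numbers. It was 0.0091 without Ebi3-Treg 1 and 0.03 without Blimp1-Treg 2. Smad4 (ENSMUSG00000024515), the common partner, was at 147, 89.3, 133 and 119.5 FPKM in Ebi3-Treg, against 127, 73.8, 119.5 and 112 FPKM in Blimp1-Treg. It was higher in Ebi3-Treg in all 4 numbers by a small step, with a log2 fold change of 0.18 (SE 0.22, 95% interval -0.32 to 0.69) that did not pass with either term (adjusted p = 0.784, and 0.113 with the block). That step was 0.0285 without Ebi3-Treg 1, 0.0175 without Blimp1-Treg 2 and at most 0.33 without another library. The ratio of Smad3 to Smad2 was 0.726, 0.219, 1.23 and 0.766 in Ebi3-Treg, against 1.07, 0.314, 1.47 and 1.92 in Blimp1-Treg. It was lower in Ebi3-Treg within every number but overlapped between populations.

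The inhibitors lay on the side opposite to Smad3. Smad7 (ENSMUSG00000025880), which recruits ubiquitin ligases to the type I receptor and is itself a target of the pathway, was at 127, 30.1, 132 and 132 FPKM in Ebi3-Treg, against 87.2, 23.4, 105 and 98.4 FPKM in Blimp1-Treg. Each Ebi3-Treg library exceeded its counterpart by a similar step, 0.54, 0.35, 0.33 and 0.42 on the log2 scale for numbers 1 to 4, while the libraries numbered 2 lay far below the rest in both populations. The fitted log2 fold change was 0.41 (SE 0.50, 95% interval -0.75 to 1.57), with an adjusted p of 0.794 with the table as a term and 0.00989 with the block (95% interval 0.23 to 0.59), and replicates 3 and 4 passed alone (adjusted p = 0.0389). With the table as a term and without Ebi3-Treg 1 it was -0.0058, and without Blimp1-Treg 2 it was 0.0316. Ski (ENSMUSG00000029050), a corepressor that binds SMAD complexes, likewise had its lowest value in the library numbered 2 of each population. It was at 84.4, 26.5, 86.5 and 90.8 FPKM in Ebi3-Treg, against 69.4, 20.9, 79.3 and 82.0 FPKM in Blimp1-Treg. Its log2 fold change of 0.22 (SE 0.43, 95% interval -0.78 to 1.22) did not pass with either term (adjusted p = 0.890, and 0.0853 with the block), and was -0.12 without Ebi3-Treg 1 and -0.13 without Blimp1-Treg 2.

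The ratios of both inhibitors to Smad3 did not overlap between the populations. Smad7 over Smad3 was 2.71, 1.79, 1.71 and 2.77 in Ebi3-Treg, against 1.20, 0.857, 1.12 and 0.857 in Blimp1-Treg. Ski over Smad3 was 1.80, 1.57, 1.13 and 1.90 in Ebi3-Treg, against 0.954, 0.764, 0.852 and 0.715 in Blimp1-Treg. In both ratios Ebi3-Treg 3 was the lowest of its population and still above every Blimp1-Treg library.

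**Figure D3:**
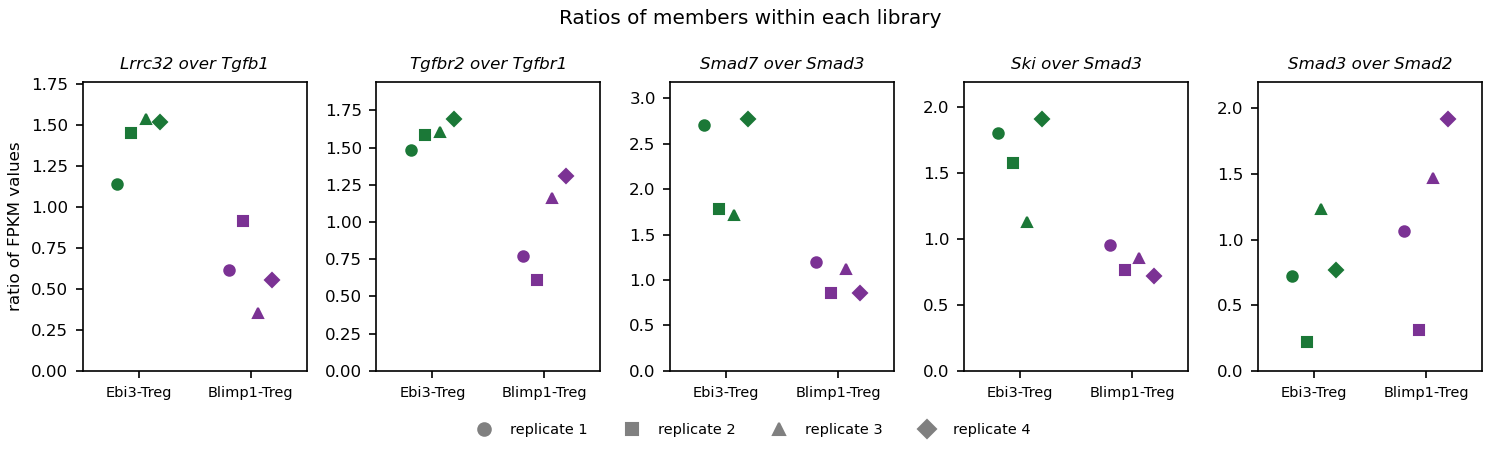
Ratios of FPKM values within each library (vertical axes) for 5 pairs of genes, by population, with point shapes for the replicate number. The populations do not overlap for Lrrc32 over Tgfb1, Tgfbr2 over Tgfbr1, Smad7 over Smad3 and Ski over Smad3, and they overlap for Smad3 over Smad2.

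The libraries numbered 2 stood apart in most of these genes. In both populations 9 of the 10 genes were lower there than the median of the other 3 libraries. Smad7 was at 0.229 times that median in Ebi3-Treg 2 and 0.238 times in Blimp1-Treg 2, Ski at 0.306 and 0.263 times, and Smad3 at 0.353 and 0.294 times. Smad2 was the exception, at 1.23 and 1.38 times. Over all genes tested, the same ratio had a median log2 of -0.17 in Ebi3-Treg 2 and -0.24 in Blimp1-Treg 2. With both libraries numbered 2 left out and the table as a term, 4 of the 10 genes passed (Lrrc32, Tgfbr2, Smad3 and Smad7), where 16.0% of all genes did, and with both libraries numbered 1, those high in B cell markers, left out, 3 passed (Lrrc32, Smad3 and Smad7), where 16.1% did. For a difference of the contrast between tables, 0 of the 10 genes and 0.00% of all genes passed by a limma interaction term (203 genes at an unadjusted p below 0.05), and both tables gave one direction in 8 of the 10 genes, where they did in 69.7% of all genes.

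By level on the deposited FPKM scale, the order in Ebi3-Treg ran from Lrrc32 (166 ± 42.3 FPKM) over Smad4 (122 ± 24.7), Tgfb1 (121 ± 47.4), Smad7 (105 ± 50.1), Tgfbr2 (87.1 ± 32.0), Ski (72.1 ± 30.5), Smad2 (66.5 ± 7.01), Tgfbr1 (54.8 ± 19.6) and Smad3 (47.1 ± 24.5) to Tgfbr3 (10.1 ± 3.42 FPKM; SD, n = 4). In Blimp1-Treg it ran from Tgfb1 (133 ± 53.3 FPKM) over Smad4 (108 ± 23.6), Smad7 (78.4 ± 37.3), Smad3 (77.0 ± 37.3), Lrrc32 (76.0 ± 32.4), Tgfbr1 (70.8 ± 17.6), Smad2 (69.6 ± 12.2), Tgfbr2 (69.6 ± 28.9) and Ski (62.9 ± 28.5) to Tgfbr3 (6.46 ± 3.02 FPKM; SD, n = 4). Lrrc32 stood at rank 1 in Ebi3-Treg and rank 5 in Blimp1-Treg, and Smad3 at rank 9 in Ebi3-Treg and rank 4 in Blimp1-Treg. Apart from the step to Tgfbr3, neighbours in either order differed by less than the larger of their SDs, except Lrrc32 and Smad4 in Ebi3-Treg. The order also depends on the gene length behind the deposited values. Over the joint length of all exons of a gene, Ski came to rank 2 in Ebi3-Treg (66.3 FPKM) and rank 1 in Blimp1-Treg (57.9 FPKM), and Smad2 to rank 9 in both (5.64 FPKM in Ebi3-Treg, against 5.90 in Blimp1-Treg). Lrrc32 stood there at rank 1 in Ebi3-Treg and rank 2 in Blimp1-Treg, and Smad3 at rank 8 in both. The shifts in rank of these genes on the deposited scale thus depend on the gene lengths used. The rank of Smad2 over all exons rests on the shortest length that gave whole reads.

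Around these 10 genes, 93 others of the pathway were grouped by role, of which 64 were tested. Of those, 5 were higher in Ebi3-Treg, 3 were lower and 56 did not pass, where 3.37% of all genes were called higher and 2.93% lower. Their median log2 fold change was 0.02, against 0.07 over all genes. With the replicate block 14 were higher and 13 lower, where 13.5% of all genes were called higher and 8.94% lower, shares that also stand behind each count with the block below. Genes named below for that fit alone were chosen after their values were seen.

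Of 15 genes of TGF-beta latency and activation 9 were tested, 3 were lower in Ebi3-Treg, 0 were higher and 6 did not pass (median log2 fold change -0.73). With the block 5 were lower, the 3 named next, Itgav and Furin, a protease that cleaves the TGF-beta precursor (log2 fold change -0.89). Mmp9, a matrix metalloproteinase that can cleave the latent complex, was at 3.17, 0.957, 5.56 and 7.94 FPKM in Ebi3-Treg, against 34.7, 13.5, 26.4 and 25.7 FPKM in Blimp1-Treg, without overlap (log2 fold change -2.41, SE 0.40, adjusted p = 0.0118), and was called in each of the 8 fits that left out 1 library. Itgb5, an integrin beta chain that pairs with the alpha chain Itgav, was at 5.20, 4.28, 5.72 and 6.08 FPKM in Ebi3-Treg, against 9.56, 6.89, 23.3 and 21.6 FPKM in Blimp1-Treg (log2 fold change -1.22, SE 0.25, adjusted p = 0.0282). Itgb8, the beta chain of the integrin with which Tregs activate TGF-beta, was at 7.04, 5.33, 10.7 and 7.94 FPKM in Ebi3-Treg, against 9.76, 10.0, 16.7 and 18.0 FPKM in Blimp1-Treg (log2 fold change -0.73, SE 0.17, adjusted p = 0.0410), with an overlap by Ebi3-Treg 3. Itgb5 and Itgb8 lost the call when single libraries were left out, 6 of 8 times with an adjusted p up to 0.113 for Itgb5 and 7 of 8 times with one up to 0.162 for Itgb8. Neither passed without the table term (adjusted p = 0.145 for Itgb5 and 0.265 for Itgb8) or without the filter on low values (0.0719 for Itgb5 and 0.130 for Itgb8). Itgav, named after its values were seen, was at 45.2 ± 4.51 FPKM in Ebi3-Treg, against 73.8 ± 14.7 in Blimp1-Treg (SD, n = 4). Its log2 fold change of -0.68 did not pass with the table as a term (adjusted p = 0.0584) and passed with the block (0.00843). Myeloid cells express Mmp9 as well. The myeloid sums above were highest in Ebi3-Treg 1 and 2, where most of the sum was Lyz2 (99.1 and 91.1 FPKM). Lyz2 was at 3.74 to 29.9 FPKM in Blimp1-Treg. Cd68, the other myeloid marker tested, lay lower, at 4.37 ± 1.30 FPKM in Ebi3-Treg against 6.52 ± 2.08 in Blimp1-Treg (SD, n = 4; adjusted p = 0.378). The myeloid markers thus did not share a direction, and the part of myeloid cells in Mmp9 was not tested.

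Other ligands were mostly too low to test, 2 of 11 passing the filter and neither the test (median log2 fold change 0.24). Bmp7, a bone morphogenetic protein, lay higher by 0.44 on the log2 scale (adjusted p = 0.108, and 0.00843 with the block), and Gdf11 by 0.05 (adjusted p = 0.946). Of 12 other receptors and co-receptors 6 were tested, 1 was higher and 5 did not pass (median 0.03), and with the block 2 were higher (Nrp1 and the pseudoreceptor Bambi) and 1 lower (Acvrl1, a type I receptor). The higher one was Nrp1, a semaphorin co-receptor of Tregs that also binds TGF-beta, at 96.1, 82.97, 110.5 and 117 FPKM in Ebi3-Treg against 25.9, 30.2, 82.0 and 72.0 FPKM in Blimp1-Treg, without overlap but with a gap that was wider in replicates 1 and 2 (log2 fold change 1.64) than in replicates 3 and 4 (0.56), a difference between tables that did not pass. Its fitted log2 fold change was 1.1 (SE 0.23, adjusted p = 0.0296), and the call was lost in 7 of 8 fits without 1 library (adjusted p up to 0.0839), without the table term (0.205) and without the filter on low values (0.0784).

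Of 4 other SMADs 2 were tested, Smad1 was higher and the other did not pass (median 0.43). Smad1, which transduces bone morphogenetic protein signals, was at 20.9, 15.9, 25.5 and 27.6 FPKM in Ebi3-Treg, against 10.3, 8.57, 15.8 and 14.4 FPKM in Blimp1-Treg (log2 fold change 0.83, SE 0.15, adjusted p = 0.0163). The populations were divided by a narrow gap between Ebi3-Treg 2 and Blimp1-Treg 3, and the call was lost without replicate 3 or 4 of either population (adjusted p up to 0.0785), without the table term (0.138) and without the filter on low values (0.0514). Of 13 SMAD partners and corepressors 12 were tested, 1 was higher and 11 did not pass (median 0.19), and with the block 5 were higher (Pmepa1, Ldlrad4, Tgif1, Tgif2 and Zeb1) and 1 lower (Runx3). Pmepa1, a target that binds SMADs and limits the signal, was at 64.2 ± 14.8 FPKM in Ebi3-Treg, against 39.4 ± 9.37 in Blimp1-Treg (SD, n = 4; log2 fold change 0.70, adjusted p = 0.0296), with the call lost in 7 of 8 fits without 1 library (adjusted p up to 0.124), with libraries scaled to a common median (0.0938), without the table term (0.184) and without the filter on low values (0.1004). Its relative Ldlrad4, named after its values were seen, was at 37.8 ± 7.98 FPKM in Ebi3-Treg, against 25.3 ± 6.79 in Blimp1-Treg (log2 fold change 0.58, adjusted p = 0.0920, and 0.0181 with the block).

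Of 18 genes of receptor and SMAD turnover 16 were tested, 1 was higher and 15 did not pass (median 0.08), and with the block 3 were higher (Nedd4l and the ubiquitin ligases Smurf1 and Smurf2) and 1 lower (Fkbp1a, which binds the type I receptor). Nedd4l, a ubiquitin ligase that acts on activated Smad2 and Smad3, was at 3.59, 2.93, 3.74 and 4.60 FPKM in Ebi3-Treg, against 1.16, 0.870, 0.979 and 1.28 FPKM in Blimp1-Treg. The log2 fold change was 1.18 (SE 0.17, adjusted p = 0.00735), the populations did not overlap, and the call held in each of the 8 fits that left out 1 library (adjusted p up to 0.0371). Nedd4l lay near the 1 FPKM minimum in Blimp1-Treg, and below it in replicates 2 and 3, so its Ebi3-Treg values carried it past the filter. It was not tested under a filter of 5 FPKM in at least 4 libraries. All 7 SMAD-independent mediators were tested and 0 passed (median 0.13), Rhoa with a log2 fold change of -0.36 (adjusted p = 0.138) and Tab1 with one of 0.43 (adjusted p = 0.636). Both passed with the block (adjusted p = 0.0219 for Rhoa and 0.0389 for Tab1).

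Target genes of TGF-beta in lymphocytes did not share a direction. The list gave no expected sign for each target, so the signs and the median below do not measure pathway activity. Of 17 beside Smad7 and Ski, 14 were tested, 2 were higher, 1 was lower and 11 did not pass (median log2 fold change -0.22), and with the block 3 were higher (Id3, Pmepa1 and Ldlrad4) and 5 lower (Itgb8, Ahr, Id2 and the cell cycle inhibitors Cdkn1a and Cdkn2b). Id3, an inhibitor of E proteins, was at 139.7, 111, 91.7 and 98.7 FPKM in Ebi3-Treg, against 24.8, 17.4, 14.7 and 11.7 FPKM in Blimp1-Treg (log2 fold change 2.65, SE 0.17, adjusted p = 0.000310). Pmepa1, described above, was the other higher one. The lower one was Itgb8, described above. Itgae, which encodes the integrin chain CD103, long known to be induced by TGF-beta, did not pass at a log2 fold change of -0.65 (adjusted p = 0.487) and was named after its values were seen.

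**Figure D4:**
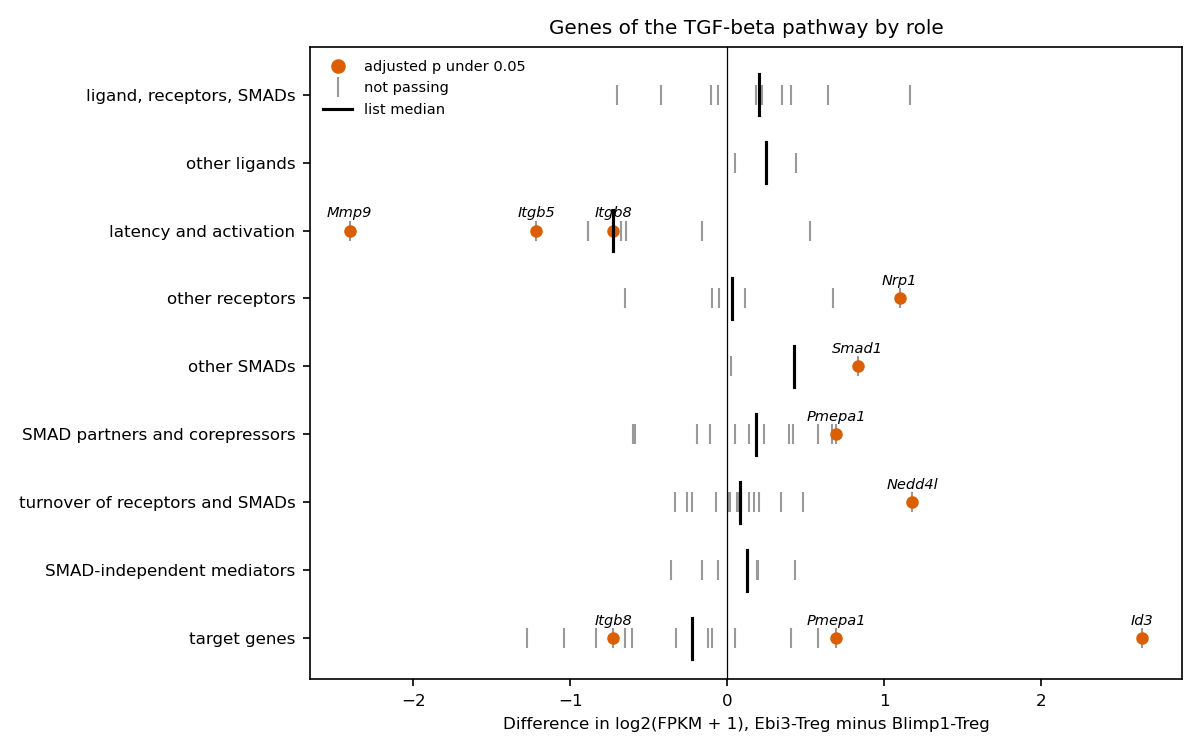
Difference in log2(FPKM + 1), Ebi3-Treg minus Blimp1-Treg (horizontal axis), of every tested gene in 9 groups of pathway genes (rows). Filled points are genes past an adjusted p of 0.05 with the table as a term, ticks are genes that did not pass, and long bars are group medians. Mmp9, Itgb5 and Itgb8 lie on the lower side and Nrp1, Smad1, Pmepa1, Nedd4l and Id3 on the higher side.

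The genes most like Lrrc32 and Smad3 across the 8 libraries were found by the root mean square difference of log2 values, after centring on each table. The closest to Lrrc32 were Slc25a23 (0.16), Gpr83 (0.19), Sema6c (0.19), Actn1 (0.19) and Gtf2i (0.21). Gpr83, a receptor known from Tregs, was at 72.9, 46.7, 64.6 and 85.8 FPKM in Ebi3-Treg, against 37.4, 28.6, 21.5 and 38.8 FPKM in Blimp1-Treg. Gpr83 and Actn1 were lowest in Blimp1-Treg 3, as Lrrc32 was, while Slc25a23, Sema6c and Gtf2i were lowest in Blimp1-Treg 2. The genes were chosen for likeness over these libraries, so a shared low library adds no support. The closest to Smad3 were Dnmt1 (0.16), Ppp4r1 (0.16), Pde3b (0.17), Ahr (0.17) and Cpd (0.17). Ahr, which encodes the aryl hydrocarbon receptor and is itself in the list of targets, was at 57.2, 21.3, 58.6 and 44.9 FPKM in Ebi3-Treg, against 107.9, 39.1, 96.1 and 83.9 FPKM in Blimp1-Treg. Genes compared in this way share the depth and scaling of each library, and both libraries numbered 2 are low for Ahr and for Smad3, so the likeness is a description of 8 libraries.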

How the data were processed

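CD4+ T cells were enriched on magnetic beads and sorted, and SMART-Seq v4 chemistry for ultra-low input served to build the libraries, per the labels' protocols. The submitters' processing notes name Bowtie2 2.2.3, TopHat2 2.0.12, HTSeq 0.6.1 and mm9; which step each served, which annotation was used and how reads were counted is not given in the sources used here. Gene-level FPKM values were deposited by the authors in 2 tables, which hold 47069 Ensembl genes in common, and 46488 of these had a symbol in a GENCODE table of gene names (GRCm38). Coordinates are given for RefSeq promoters only, on GRCm38.p6.

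The low values of each library gave its depth. With the mean length of a gene's annotated transcripts, the deposited FPKM came out as whole reads within 0.01 read for 76.0% to 78.9% of values, and for 8 of the 10 genes described. For Tgfbr2 and Smad2 the shortest length that gave whole reads was used, so their reads, and their level over all exons, could be larger by a whole factor. Without molecular identifiers, copies of 1 molecule cannot be told from separate molecules.

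The test was limma 3.58.1 (R 4.3.3) on log2(FPKM + 1) for the 12273 genes that reached 1 FPKM in 4 or more of 8 libraries, with terms for population and table, a variance trend, and two-sided p adjusted by Benjamini-Hochberg over all genes, at 0.05. This scale understates the change of low genes. Adjusted p are from this fit where no other is named. The script was tested on simulated data with independent noise in each library. Those data lack the shared deviations of same-numbered libraries described below, so the test does not cover them. Depth and recovered reads also gave a voom fit, added after the data were seen.

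Deviations from the population means went together in libraries of the same number (r = 0.62, 0.89, 0.53 and 0.54 across genes for numbers 1 to 4), and this, not the labels, pairs them. With the other number of that table, Ebi3-Treg 1 to 4 had r of -0.28, -0.02, 0.56 and 0.61, so for numbers 3 and 4 the table and the number cannot be told apart. Results of a fit that has a replicate block are stated where they change a call.

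The 10 genes, the lists of other pathway genes and markers and the motifs were chosen with earlier results of these data known, and some genes are not reported here. Of each list every gene past the threshold is named, or the 2 with the smallest unadjusted p where none passed. Likeness was sought for the 2 of the 10 genes with the smallest unadjusted p.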

Additional observations from a re-analysis of the deposited data

Results flagged for a closer look

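In 3 of 44 groups of 4 libraries, a single library lay apart from the other 3 of its population by more than Dixon's test allows, which chance gives in about 1 in 20 groups. All 3 concern Ebi3-Treg 2. Smad7 was at 30.1 FPKM in Ebi3-Treg 2, against 127 to 132 FPKM in the other Ebi3-Treg libraries, and Ski was at 26.5 FPKM there, the lowest of 4. Smad2 was at 76.9 FPKM in Ebi3-Treg 2, the highest of 4. Blimp1-Treg 2 lay on the same side for all of these genes without passing the test.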

How the results depend on the processing

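The count of genes called was 772 with the table as a term, 420 without a filter on low values, 441 without the table term, 2752 with the replicate block, 341 to 771 with 1 library left out, 1970 and 1962 with both libraries numbered 1 or both numbered 2 left out, and 0 and 1347 in replicates 1 and 2 or 3 and 4 alone. Of the 10 genes, 0 were called with the table as a term, 5 with the replicate block, 0 to 1 with 1 library left out (Lrrc32, without Ebi3-Treg 2 or without Blimp1-Treg 1), 3 and 4 without the libraries numbered 1 or 2, and 2 in replicates 3 and 4 alone. In replicates 1 and 2 alone the replicate block gave 2855 genes, against 0 (707 at an unadjusted p under 0.05), and it gave 13 genes whose contrast differed between tables, against 0.

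Of 220 values of the 10 genes under other settings, 195 kept their direction and their side of the threshold, 16 passed it and 9 changed sign. Tgfb1 was at 0.0728 in replicates 1 and 2 alone and at -0.45 to 0.17 with 1 library left out, and Smad2 at 0.0171 in replicates 3 and 4 alone and at -0.11 to 0.0297. With 1 library left out, Smad7 ranged from -0.0058 to 0.81 and Ski from -0.13 to 0.54. Gdf11 was at -0.0563 with quantile normalization, -0.0399 in replicates 3 and 4 alone and -0.0485 to 0.12 with 1 library left out. The cause was not tested. Of 262 values of the 12 other pathway genes named by the rule (Bmp7, Gdf11, Itgb5, Itgb8, Mmp9, Nrp1, Smad1, Pmepa1, Nedd4l, Rhoa, Tab1 and Id3), 201 kept direction and side, 50 lost the call, 7 gained it and 4, all of Gdf11, changed sign. Scaling libraries to a common median moved them by -0.23 to 0.16 log2 units and the median of all genes to 0.00, and changed no direction of the 10 genes. Depth limits Tgfbr3 most, with 122 reads in Blimp1-Treg 2.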
